A study of Mus musculus with 4 samples.

Results

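Cancer-associated fibroblasts (CAFs) with Cxcl13, Steap4 and related genes were examined in single cells of 2 pancreatic tumors from KPC mice, which carry KrasLSL-G12D/+, Trp53LSL-R172H/+ and Pdx1-Cre on a C57BL/6J background. The cells, called the Cxcl13 set here, were 279 of the 7984 cells that passed the filter (500 or more genes and at most 10% mitochondrial UMIs), and 279 of 1636 gated fibroblasts. A gated fibroblast had at least 50 UMIs of Col1a1, Col1a2, Col3a1 and Dcn per 10000 UMIs, under 20 of Krt8 and Krt18, and no UMI of the leukocyte gene Ptprc. A member also had a UMI for 2 or more of 4 shared fibroblast genes (Clec3b, Dpt, Col14a1 and Ly6c1). It had a UMI for at least 3 of the first 6 genes (Cxcl13, Lrg1, Steap4, Ggt5, Fabp4 and Sned1) and for at least as many of these as of the second 6 (Cd55, Sema3c, Dmkn, Creb5, Sfrp4 and Tnfrsf11b). Members were thus chosen by detected UMIs of these genes. Every gene of every cell counts as used by this rule, so differences between the Cxcl13 set and other fibroblasts are descriptions with no test.

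Each tumor gave a sorted CAF library, of cells labelled negative for CD45, CD31 and EpCAM and positive for PDPN, and an all live library of DAPI-negative cells, which makes 4 libraries. Pdx1-Cre recombines the alleles in the pancreatic epithelial lineage and is not a fibroblast driver. KPC tumors are a standard model of pancreatic ductal adenocarcinoma with a dense fibroblast-rich stroma. Both libraries of a number came from the same tumor.

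Fibroblasts of pancreatic tumors are commonly divided into contractile, matrix-rich myofibroblastic cells and inflammatory cells that secrete chemokines, IL6-family cytokines and acute phase proteins. Cxcl13 attracts B cells and follicular helper T cells through the receptor Cxcr5, and Cxcl12 acts on lymphocytes, myeloid cells and progenitors through Cxcr4. Steap4 is a metalloreductase for iron and copper that is induced in inflammation, Ggt5 cleaves glutathione and leukotriene C4, and Lrg1 is a secreted leucine-rich glycoprotein found in blood vessels, liver and neutrophils.

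The libraries held between 14972652 and 30950993 UMIs in 1340 to 3583 barcodes. An epithelial gate of Krt8 and Krt18 was passed by 1027 of 1402 cells (73.3%) in the sorted CAF library of tumor 1. In the sorted CAF library of tumor 2, 106 of 1222 cells (8.67%) passed it. Neither Epcam nor Pdpn was part of this gate, so whether these cells met the sort label was not tested. Members came to 210 and 19 cells in the sorted CAF and all live libraries of tumor 2, and to 26 and 24 cells in those of tumor 1. The sorted CAF library of tumor 2 thus held most of the members, and sums over the other 3 libraries rest on 150518 to 187819 UMIs each, against 2745895 in that library. Between 4 and 6 barcodes were shared by any pair of libraries, and 1 of these belonged to a member. Levels are given as CPM, a gene's UMIs summed over the cells of a set in a library and scaled to 1000000 UMIs of the same cells.

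**Figure D1:**
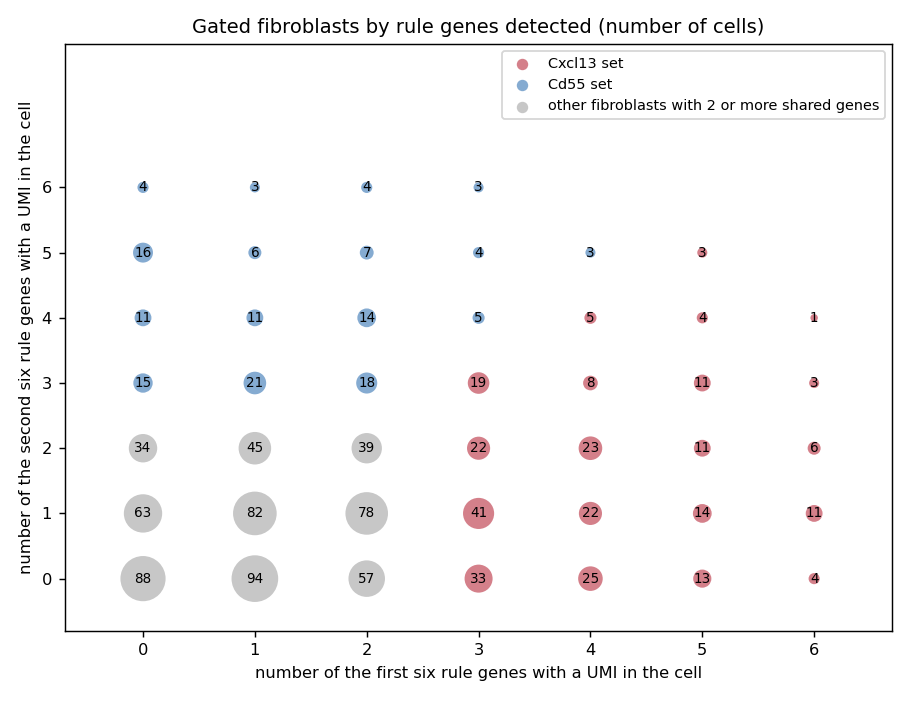
Cells of all 4 libraries with 2 or more of the 4 shared genes, by the number of the first 6 rule genes (x axis) and of the second 6 rule genes (y axis) with a UMI. Circle area grows with the number of cells, which is printed in the circle; the 279 members lie at 3 or more on the x axis, and 27 of them are tied between both groups of 6.

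Members lay next to other fibroblasts in the count of rule genes. Among the members, 115 had a UMI for exactly 3 of the first 6 genes, 83 for 4, 56 for 5 and 25 for all 6. Just inside the threshold, the 115 cells with 3 genes held 662 CPM of Cxcl12, 105 CPM of Cxcl13, 69.8 CPM of Lrg1 and 284 CPM of Fabp4. Just outside, the 174 cells with 2 genes held 383 CPM of Cxcl12, 22.0 CPM of Cxcl13, 37.1 CPM of Lrg1 and 345 CPM of Fabp4. The 27 tied members held 190 CPM of Cd55, the complement decay factor of the second group, against 334 CPM in the 8 cells that had 1 more of the second 6 than of the first 6. They also held less Cxcl13 (195 against 392 CPM), Fabp4 (177 against 248 CPM) and Sned1 (344 against 563 CPM) than those 8 cells. They held more Cxcl12 (819 against 630 CPM), Lrg1 (129 against 19.1 CPM), Steap4 (159 against 115 CPM) and Ggt5 (45.5 against 9.55 CPM).

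Cxcl13 itself was detected in a minority of members. All 8 fibroblast markers (Col1a1, Col1a2, Col3a1, Dcn, Lum, Pdgfra, Pdpn and Fap) and all 11 inflammatory fibroblast markers had UMIs in the Cxcl13 set of each library. Of these, Col1a1, Col1a2, Col3a1 and Dcn were in the gate and Ly6c1, Clec3b, Dpt and Col14a1 were among the shared genes, so the rule fixed them. A Cxcl13 UMI was seen in 103 of 279 members (36.9%, exact 95% interval 31.2 to 42.9%), against 1.30% of 2622 leukocyte-gated and 4.38% of 2327 epithelial-gated cells. Lrg1 was seen in 54.5% of members and Ggt5 in 52.7%. These intervals cover counting error only. Cxcl12 took no part in the rule, and a UMI of it was seen in 237 of 279 members (84.9%, interval 80.2 to 88.9%), against 0.572% of the leukocyte-gated and 1.42% of the epithelial-gated cells. Median depths were 9865 UMIs in members, 3992.5 in leukocyte-gated cells and 17039 in epithelial-gated cells. Lrg1 was not particular to fibroblasts, since 60.2% of leukocyte-gated cells of the all live library of tumor 1 also had a UMI.

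Cxcl13 was the most uneven of the label markers. It held 978 and 113 CPM in the sorted CAF and all live libraries of tumor 2, and 2082 and 7510 CPM in those of tumor 1. A single cell gave 19.4% and 47.1% of these UMIs in tumor 2 and 45.8% and 28.9% in tumor 1. The level was therefore low in the all live library of tumor 2, where 3 of 19 members had a Cxcl13 UMI, and high in the all live library of tumor 1, where 13 of 24 did. Cxcl13 was also not confined to the Cxcl13 set. In tumor 2 it had UMIs in the Cd55 set, described below. The 5 label markers summed to 2639 CPM in its 6 cells of the all live library of tumor 2, against 1515 CPM in members. Cxcl13 held 7.33 and 4.36 CPM in tumor 2, sorted CAF first, in gated fibroblasts with fewer than 2 of the shared genes. In those of tumor 1 it held 2490 and 2790 CPM.

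The other label markers varied less. Cxcl12 held 1319 and 1003 CPM in the sorted CAF and all live libraries of tumor 2 and 1182 and 1923 CPM in those of tumor 1, all above the 87.9 to 221 CPM of fibroblasts with fewer than 2 shared genes. Lrg1 held 175 and 159 CPM in tumor 2 and 351 and 264 CPM in tumor 1. Steap4 held 173 and 153 CPM in tumor 2 and 122 and 197 CPM in tumor 1. Ggt5 held 72.5 and 86.4 CPM in tumor 2 and 128 and 107 CPM in tumor 1. In fibroblasts of tumor 1 with fewer than 2 shared genes, Steap4 held 148 and 128 CPM and Ggt5 9.08 and 3.60 CPM; both genes are in the rule.

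**Figure D2:**
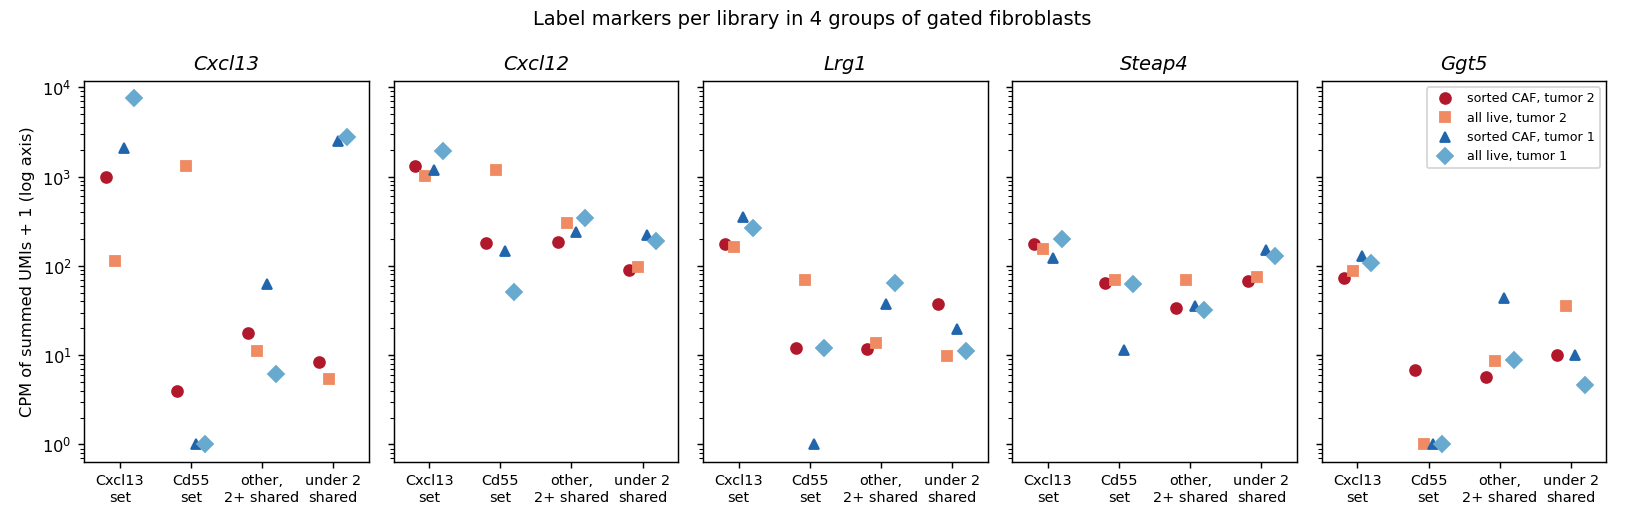
CPM + 1 on a log axis of the 5 label markers in the Cxcl13 set, the Cd55 set, other fibroblasts with 2 or more shared genes and fibroblasts with under 2 shared genes, 1 point per library. Cxcl12, which the rule did not use, lies between 1003 and 1923 CPM in the Cxcl13 set of all 4 libraries, while Cxcl13 runs from 113 to 7510 CPM; the Cd55 set of the all live library of tumor 2 is 6 cells.

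Members with and without a Cxcl13 UMI differed in other genes, some alike in both tumors and some not. In tumor 2, the 78 members with Cxcl13 held 1976 CPM of Cxcl12, against 986 CPM in the 151 members without it. Apoe, a lipid carrier, held 2128 CPM with Cxcl13 and 832 CPM without. Angiotensinogen (Agt) held 44.3 CPM with and 8.63 CPM without, and Cp, the copper-carrying ferroxidase, held 527 CPM with and 251 CPM without. Ccl24, a Ccr3 ligand that attracts eosinophils, went the other way, with 12 UMIs in 5 of the 78 members with Cxcl13 and 100 UMIs in 35 of the 151 without. Wt1, a transcription factor of mesothelium and visceral mesenchyme, held 97.2 CPM with and 126 CPM without in tumor 2. In tumor 1, the 25 members with Cxcl13 held 366 CPM of Wt1, against 127 CPM in the 25 members without. Cxcl12 held 1680 CPM with and 1344 CPM without there, and Cp 407 CPM with and 227 CPM without, in the same order as in tumor 2. Apoe held 6580 CPM with and 11337 CPM without, and Ccl24 393 CPM with and 86.9 CPM without, both the reverse of tumor 2. The acute phase gene Saa3 held 3739 CPM with and 180 CPM without, but 297 of its 808 UMIs came from 1 cell. In tumor 2 it held 693 CPM with and 696 CPM without. Agt was seen in 6 of 25 members of tumor 1 with Cxcl13 and in 0 of 25 without. Cells of 1 tumor are not independent, so these are values of 2 tumors, with no test. Median depths of members with and without Cxcl13 were 10376 and 12140 UMIs in tumor 2 and 6623 and 6090 UMIs in tumor 1.

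The set's share of gated fibroblasts was 22.1% (exact 95% interval 19.5 to 24.9%) and 14.6% (9.03 to 21.9%) in the sorted CAF and all live libraries of tumor 2. It was 8.31% (5.50 to 11.9%) and 9.92% (6.46 to 14.4%) in the sorted CAF and all live libraries of tumor 1. The odds of sorted CAF over all live were 1.65 (0.983 to 2.92) in tumor 2 and 0.823 (0.441 to 1.54) in tumor 1, with exact intervals that treat cells as independent and cover counting error only. The smallest two-sided p that an exact permutation test allows with 2 libraries a group is 0.333. Members had median depths of 11902 and 8347 UMIs in the sorted CAF and all live libraries of tumor 2 and of 6464 and 6093.5 UMIs in those of tumor 1. Other fibroblasts with the shared genes had 10893.5 and 5027.5 UMIs in tumor 2 and 6132.5 and 7121.5 UMIs in tumor 1. The order of member depths over the libraries was that of the shares except between the libraries of tumor 1. The depths of the other fibroblasts followed a different order. With each cell thinned to 3000 UMIs the shares were 8.82% and 8.49% in tumor 2 and 4.49% and 4.80% in tumor 1, and the odds ratios were 1.04 and 0.932. In the all live library of tumor 2, 1 of 6 Cd55 cells, 17 of 66 other fibroblasts with the shared genes and 8 of 39 fibroblasts with fewer were shallower than that and were left out; no member was. With at least 4 of the first 6 genes required, the odds ratio was 3.27 (1.42 to 9.27) in tumor 2 and 0.411 (0.166 to 0.961) in tumor 1, again for counting error only and with 1 library per fraction and tumor.

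**Figure D3:**
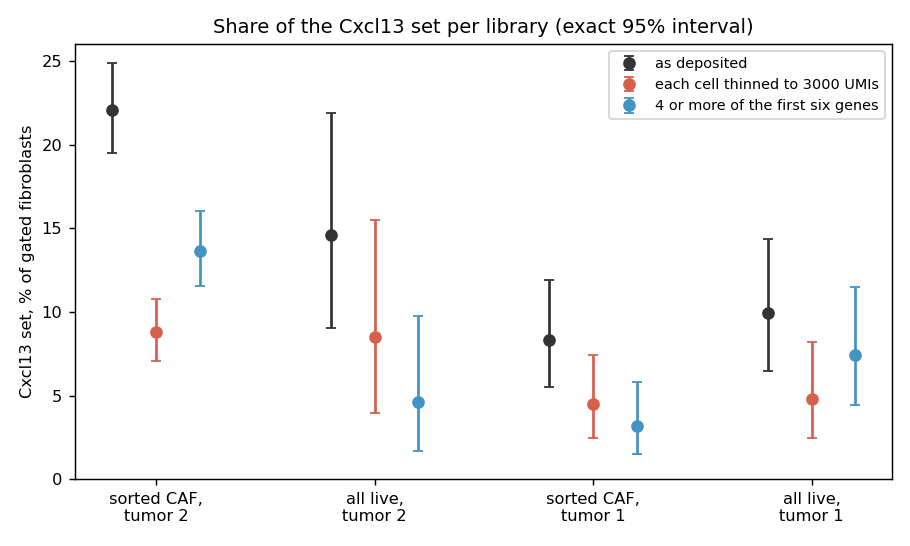
Percent of gated fibroblasts in the Cxcl13 set (y axis) for each library, with exact 95% intervals, as deposited, after thinning each cell to 3000 UMIs, and with at least 4 of the first 6 genes. As deposited the sorted CAF library of tumor 2 is at 22.1% and the other 3 libraries lie between 8.31% and 14.6%; after thinning the shares lie between 4.49% and 8.82%.

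Within the set, no gene passed the test between sorted CAF and all live members in the planned fit, which had no tumor block. The edgeR fit with the tumor as a block called 1 gene, given below, with 150 at an unadjusted p under 0.05. Of 2837 genes tested with edgeR's quasi-likelihood test, 0 were higher and 0 lower in sorted CAF than in all live members at a Benjamini-Hochberg adjusted p of 0.05 (0.0% of genes tested in each direction), while 28 had an unadjusted p under 0.05. On simulated counts of this comparison the test recovered 43.5% of genes changed 4-fold and 97% of genes changed 16-fold, so smaller changes could be missed. The simulation drew all genes at a common dispersion and with no difference between tumors, so this recovery need not hold for the real libraries. In the real fit, Lyz2 at a log2 fold change of −5.18 and S100a8 at −4.17 were not called. Without the sorted CAF library of tumor 1, whose cells mostly passed the epithelial gate, genes were called in both directions. The same held without the sorted CAF library of tumor 2 and without the all live library of tumor 1. Each of these fits has 1 library left in a group, which is assumed to vary like the others. Every label marker missed the threshold with all libraries. The log2 fold change of Cxcl12 was −0.20 ± 0.42 (SE, n = 2 libraries each, edgeR adjusted p = 0.999), that of Lrg1 0.28 ± 0.44, that of Steap4 −0.18 ± 0.37, that of Ggt5 −0.02 ± 0.41 and that of Cxcl13 −1.27 ± 1.38. Without the all live library of tumor 1 the value for Cxcl13 was 3.63 ± 0.86 (edgeR adjusted p = 0.00530; adjusted p from 0.00530 to 1 over the alternatives), and with the tumor as a replicate block it was 0.11 ± 1.08, so no direction of Cxcl13 held over these fits. The p-values measure the spread between these libraries, of which 2 come from each tumor.

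The genes called between fractions with a replicate block or with DESeq2 were genes of leukocytes. With the tumor as a replicate block, Lyz2, the lysozyme of macrophages and neutrophils, fell by 5.86 ± 0.47 on the log2 scale in sorted CAF members (edgeR adjusted p = 0.0451; adjusted p from 1.12e-17 to 1 over the alternatives), and no other gene was called (0.0% higher and 0.0352% lower of genes tested). Lyz2 held 9.10 and 625 CPM in the sorted CAF and all live libraries of tumor 2 and 10.6 and 73.1 CPM in those of tumor 1, so it was lower in the sorted library of both tumors. In the all live library of tumor 2, 1 member gave 76 of its 94 UMIs, and without that library the log2 fold change was −2.81 with no call. DESeq2 called 0 genes higher and 4 lower (0.0% and 0.0267% of genes tested), namely Lyz2, the class II chaperone Cd74, the signalling adaptor Tyrobp and the protease Ctss; these 4 were named after their values were seen. Lyz2 and Tyrobp are also among 9 macrophage markers, so the sum of these markers is not separate from the calls. It was 22.6 and 1110 CPM in the sorted CAF and all live libraries of tumor 2. In those of tumor 1 it was 26.6 and 202 CPM. For Tyrobp, 1 member gave 13 of the 27 UMIs in the all live library of tumor 2. S100a8, a neutrophil gene, had 21 UMIs over 9 of the 19 members in the all live library of tumor 2. The part of leukocyte RNA in these values was not tested.

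Genes of other tissues were also seen in members. In the sorted CAF library of tumor 2, Ctrb1 was seen in 44 of 210 members, Prss2 in 27, Car3 in 23 and Cfd in 18. The exocrine gene Ctrb1 had 88 UMIs in the all live library of tumor 2, of which 84 came from 1 cell, and trypsinogen Prss2 had 74 UMIs there, of which 70 came from 1 cell. Adipocyte markers summed to 599 and 0 CPM in the sorted CAF and all live libraries of tumor 2 and to 31.9 and 320 CPM in those of tumor 1. Mesothelial markers (7 genes) summed to 135 and 140 CPM in tumor 2 and to 719 and 579 CPM in tumor 1. Wt1 gave 116 and 133 CPM of this in tumor 2 and 319 and 214 CPM in tumor 1. Nkain4 gave 9.83 and 6.64 CPM in tumor 2 and 266 and 253 CPM in tumor 1. The endothelial gene Cdh5 was at 0 in all 4 libraries, and so was Madcam1, an addressin of lymphoid stroma. The pericyte gene Rgs5 was at 0 in 3 of the libraries. Other genes of the endothelial and pericyte lists were seen. The 7 blood endothelial markers summed to 43.0 and 13.3 CPM in tumor 2 and to 85.2 and 146 CPM in tumor 1. The 9 pericyte or smooth muscle markers summed to 150 and 120 CPM and to 192 and 202 CPM in the same order. Members with 10 or more UMIs over 8 acinar, adipocyte and leukocyte genes came to 13 cells. The comparisons between fractions and between tumors were repeated without them.

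Set against the Cd55 set, the fibroblasts that pass the same gate and shared genes but have at least 3 of the second 6 genes and more of these than of the first 6, the Cxcl13 set had more Hp, Apoe, Lpl and Cxcl12 and less Pi16, Mfap5 and Igfbp6 in each library compared. The Cd55 set had 113 and 6 cells in the sorted CAF and all live libraries of tumor 2 and 10 and 16 cells in those of tumor 1. The library with 6 cells was left out, so 3 libraries entered. Of 5631 genes with a mean of 20 or more CPM, 68 (1.21%) were at least 2-fold higher and 64 (1.14%) at least 2-fold lower in the Cxcl13 set in every one of them, with 1 CPM added. The filter takes the mean of both sets, so a gene near 0 in one set passed only through the other, which fixes its direction. In what follows, values joined by "against" are the Cxcl13 set against the Cd55 set, and 3 such pairs in a row are the sorted CAF library of tumor 2, that of tumor 1 and the all live library of tumor 1. Without the sorted CAF library of tumor 2 these counts were 236 and 214, and without the sorted CAF library of tumor 1 they were 77 and 97. Against all other fibroblasts with the shared genes, the Cd55 set among them, 13 of the 68 and 11 of the 64 genes were called. Hp, Vtn and Cxcl12 were still called there. Apoe, Pi16 and Igfbp6 were not, at mean log2 ratios of 1.42, −1.39 and −0.985. Agt, Ccl24, Gc, Apln and Rgs16 were among the others not called there.

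Hp, Agt, Gc and Vtn were among the named genes above the Cd55 set. Haptoglobin (Hp), which binds free hemoglobin, held 1582 CPM in the Cxcl13 set and 252 CPM in the Cd55 set of the sorted CAF library of tumor 2. It held 2156 against 103 CPM in the sorted CAF library and 2164 against 111 CPM in the all live library of tumor 1. Agt, the precursor of angiotensin, held 21.1 CPM in tumor 2 and 53.2 and 56.2 CPM in tumor 1, against 0 UMIs in the Cd55 set of all 4 libraries. Against a floor of 3 counts per library, it was at least 9.54-fold higher in the sorted CAF library of tumor 2, at least 1.72-fold in that of tumor 1 and at least 3.37-fold in the all live library of tumor 1. Its UMIs came from 19 of 210 members in the first of these libraries. The vitamin D carrier Gc was seen in 48 of 210 members and in 1 of 113 Cd55 cells of that library, and vitronectin (Vtn), an adhesion protein of plasma and matrix, in 69 members and 8 Cd55 cells.

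The chemokines Cxcl12 and Ccl24 were also among them. Cxcl12 held 1319 against 178 CPM in the sorted CAF library of tumor 2, 1182 against 144 CPM in that of tumor 1 and 1923 against 50.1 CPM in the all live library of tumor 1. In the 6 Cd55 cells of the all live library of tumor 2 it was at 1184 CPM, of which 30 of 35 UMIs came from 1 cell. Ccl24 held 40.4 against 3.69 CPM, 245 against 0 CPM and 292 against 27.8 CPM. Ccl24 was outside the chemokine list. Of 14 listed chemokines, 9 passed the filter, and only Cxcl12 was 2-fold apart in the same direction in all 3 libraries. Ccl2, a monocyte attractant, held 324 against 374 CPM, 740 against 1194 CPM and 669 against 1275 CPM. Cxcl14 was 53.2 CPM or lower in 3 of the 4 libraries and 493 CPM in the sorted CAF library of tumor 2.

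Apelin (Apln), a peptide ligand of vascular cells, pleiotrophin (Ptn), a heparin-binding growth factor, and Rgs16, which shortens G protein signalling, completed the higher group. Rgs16 was seen in 73 of 210 members and 13 of 113 Cd55 cells of the sorted CAF library of tumor 2. Against the remaining fibroblasts with the shared genes the mean log2 ratio of Ptn was −1.63, the reverse of its direction against the Cd55 set. Some names on this list rested on very few cells. Serpinb2, a plasminogen activator inhibitor, came from 2 of 210, 3 of 26 and 2 of 24 members. Car3, a carbonic anhydrase abundant in fat and muscle, came from 23 of 210 members in tumor 2, where 1 cell held 242 of 817 UMIs, and from 1 of 26 and 1 of 24 members in tumor 1.

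Lipid genes such as Apoe and Lpl were higher than in the Cd55 set. Of 16 genes listed, 8 passed the filter and 5 of these were 2-fold higher and 0 lower in all 3 libraries (Apoe, Cebpb, Lpl, Car3 and Agt), with a median log2 ratio of 2.49, against −0.02 over all genes tested. Of all 5631 genes, 1.21% were higher. Car3 and Agt passed the filter only through the Cxcl13 set, so the count and the median are not independent of it. Apoe held 1251 against 283 CPM in the sorted CAF library of tumor 2, 8279 against 422 CPM in that of tumor 1 and 8787 against 635 CPM in the all live library of tumor 1. Lpl, the lipoprotein lipase, held 802 against 280 CPM, 341 against 41.2 CPM and 512 against 94.7 CPM. Adipoq, a defining adipocyte hormone, was at 0 to 36.4 CPM in the 4 libraries, and Pparg, the adipocyte transcription factor, at 0 to 22.5 CPM. The 8 adipocyte markers summed to 31.9 and 320 CPM in members of the sorted CAF and all live libraries of tumor 1, against 0 CPM in the Cd55 set of both. These sums rested on few cells. In the all live library 1 of 24 members held all 48 Car3 UMIs, and in each library 1 member held all 3 Adipoq UMIs. The part of adipocyte markers in the lipid list was not tested.

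Of the 13 acute phase and metal genes, 10 passed the filter and 4 were higher and 0 lower in all 3 libraries (Hp, Saa3, Cp and Lcn2), with a median log2 ratio of 1.41. Over all 5631 genes 1.21% were higher and 1.14% lower, with a median log2 ratio of −0.02. As in the lipid list, a gene near 0 in one set could pass the filter through the other, here and in the lists that follow. Cp held 333 against 106 CPM, 261 against 10.3 CPM and 410 against 111 CPM. Of 12 IL6-family and JAK-STAT genes, 8 passed and 2 were higher and 0 lower, the feedback inhibitor Socs3 and the receptor Lifr. Socs3 held 401 against 197 CPM, 836 against 391 CPM and 787 against 362 CPM. Il6 itself was not separated, at 384 against 204 CPM, 373 against 443 CPM and 652 against 301 CPM. Of 12 IL1 and NF-kB response genes, 10 passed and 0 were apart in either direction. Of 15 lymphoid stroma genes, 10 of the 14 outside the rule passed, and Kitl, the ligand of the receptor Kit, was the only one higher, at 23.7 against 2.95 CPM in the sorted CAF library of tumor 2. Of 11 complement genes, 10 passed and 0 were apart from the Cd55 set. Set against fibroblasts with fewer than 2 shared genes, 4 of these 10 were higher in all 4 libraries, C3, Serping1, C4b and C1ra, where 1.54% of 5658 genes were. C3, the central complement protein, held 2696 and 3534 CPM in tumor 2 and 3908 and 3654 CPM in tumor 1, against 1067 and 641 CPM and 1398 and 1357 CPM in those fibroblasts, sorted CAF first in each pair.

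Genes of adventitial fibroblasts were lower than in the Cd55 set. Of 12 listed, 10 of the 11 outside the rule passed the filter and 6 were lower and 0 higher in all 3 libraries (Mfap5, Fbn1, Pi16, Anxa3, Ackr3 and Cd34), with a median log2 ratio of −1.63. Over all 5631 genes 1.14% were lower, with a median log2 ratio of −0.02. Pi16, a peptidase inhibitor that marks adventitial fibroblasts, held 342 against 1214 CPM in the sorted CAF library of tumor 2, 442 against 1472 CPM in that of tumor 1 and 275 against 1715 CPM in the all live library of tumor 1. The microfibril gene Mfap5 held 1587 against 4044 CPM, 1347 against 4663 CPM and 978 against 5908 CPM. Pi16 and Mfap5 were still present in members, and Ly6a was not apart by the 2-fold rule. Igfbp6, an IGF-binding protein, held 196 against 770 CPM, 618 against 2614 CPM and 618 against 2378 CPM.

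The other names below the Cd55 set included Wnt2, Aspn and Tppp3. Wnt2, a Wnt ligand, was seen in 16 of 210, 0 of 26 and 2 of 24 members, against 35 of 113, 6 of 10 and 12 of 16 Cd55 cells. Asporin (Aspn), a small leucine-rich proteoglycan, held 57.2 against 375 CPM, 5.32 against 278 CPM and 5.62 against 161 CPM. Tppp3, a tubulin-binding protein, held 61.6 against 308 CPM, 10.6 against 803 CPM and 78.7 against 345 CPM. Cd200, the ligand of an inhibitory receptor on myeloid cells, held 6.92 against 47.2 CPM in the sorted CAF library of tumor 2, and the lipase Mgll, which breaks down monoacylglycerols, 5.83 against 32.5 CPM. Igfbp5, Krtdap, Tmem158, Msln and Pthlh completed the group. Msln, the mesothelial antigen, came from 6 of 113, 4 of 10 and 2 of 16 Cd55 cells, and a single cell held 34 of the 39, 17 of the 22 and 31 of the 33 UMIs.

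**Figure D4:**
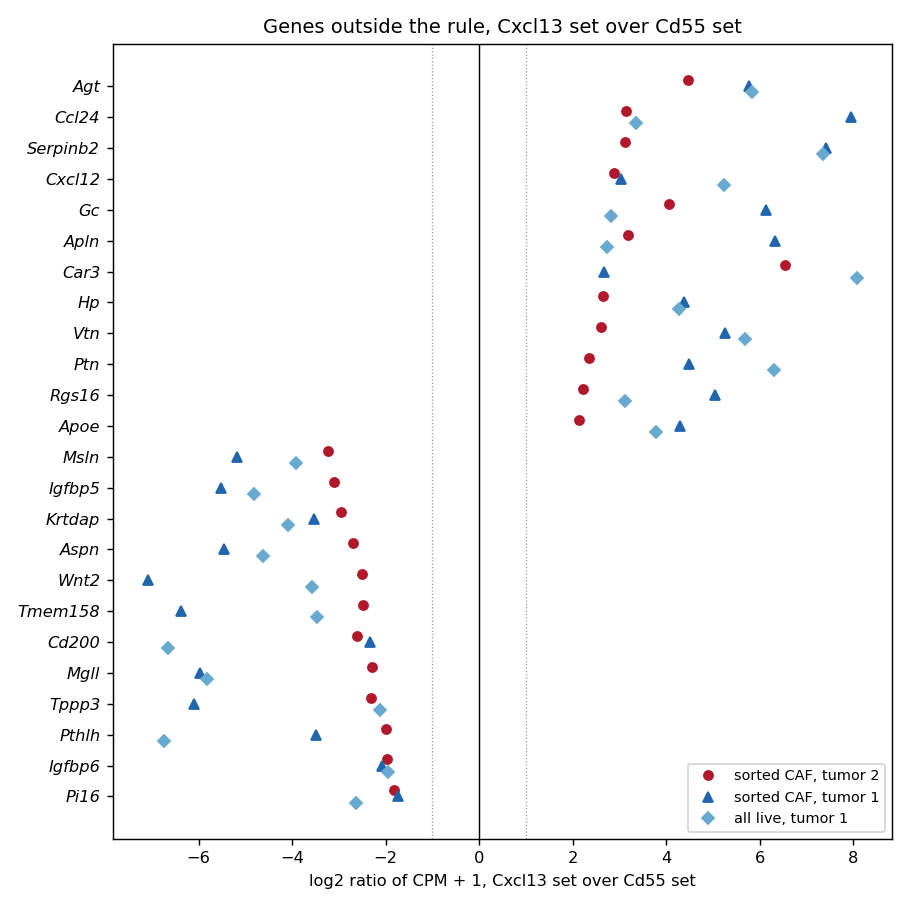
Log2 ratio of CPM + 1, Cxcl13 set over Cd55 set, for the 12 higher and 12 lower genes outside the rule with the largest ratio in the library where their ratio is smallest, 1 point for each of 3 libraries. Dotted lines mark 2-fold; the sorted CAF library of tumor 2 gives the smallest ratio for most genes.

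Myofibroblast genes were lower in members, some against the Cd55 set and others against fibroblasts with fewer than 2 shared genes. Of 13 myofibroblast genes, 12 passed the filter against both. Against the Cd55 set 4 were lower (Postn, Cthrc1, Col8a1 and Ctgf) and 0 higher, where 1.14% of 5631 genes were lower. Against fibroblasts with fewer than 2 shared genes 7 were lower in all 4 libraries and 0 higher (Acta2, Tagln, Thy1, Col8a1, Ctgf, Myl9 and Tnc), with a median log2 ratio of −2.11, where 1.06% of 5658 genes were lower. Acta2, smooth muscle actin, held 454 and 179 CPM in the Cxcl13 set of the sorted CAF and all live libraries of tumor 2 and 37.3 and 0 CPM in those of tumor 1. It held 1740 and 2054 CPM and 238 and 512 CPM in the fibroblasts with fewer than 2 shared genes. Most collagens were not apart by the 2-fold rule. Of the 17 collagen and basement membrane genes outside the rule, 16 passed against the Cd55 set, and only Col8a1 was apart. Against all other fibroblasts with the shared genes, 21 of 5599 genes (0.375%) were higher and 33 (0.589%) lower in all 4 libraries.

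The dissociation stress list, a measure of handling, was not apart. Of 14 genes 13 passed, and 0 differed 2-fold in either direction from the Cd55 set. Over all 5631 genes 1.21% were higher and 1.14% lower, for this list and those below. Of 10 proliferation genes, 6 passed and only Top2a was apart, higher at 21.9 against 9.59 CPM in the sorted CAF library of tumor 2. Of 14 interferon genes, 9 passed and 0 were apart, and of 14 matrix protease and inhibitor genes, 14 passed and 1 was lower, Htra3. Of 13 glutathione and redox genes, 9 passed and 0 were apart. Ggt1, the better known glutathione-cleaving relative of Ggt5, was at 0 in all 4 libraries. Of 14 growth factor genes, 11 passed, with Igfbp5 and Igfbp6 lower. Of 7 class II and Slpi genes, 7 passed and 3 were higher (Saa3, H2-Ab1 and H2-Aa), and H2-Aa held 7.65 against 0.738 CPM in the sorted CAF library of tumor 2. Set against fibroblasts with fewer than 2 shared genes, 0 of the 7 were higher and 2 lower in all 4 libraries. The median log2 ratio there was −1.54, where 1.54% of 5658 genes were higher and 1.06% lower. H2-Aa held 7.65 and 140 CPM in members of the sorted CAF and all live libraries of tumor 2 and 47.9 and 78.7 CPM in those of tumor 1, lower in the sorted library of both tumors like the macrophage markers, whose part in these values was not tested.

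Between the tumors, members differed in Barx1, Nkx2-3, Ptx3, Timp1, Apoe and Gpx3, among others. Of 5563 genes, 37 (0.665%) were at least 4-fold higher and 50 (0.899%) at least 4-fold lower in tumor 2 than in tumor 1 in both fractions, with 1 CPM added. With 1 tumor on each side there is no test, and tumor, animal and library preparation cannot be told apart. The call needs both fractions, so it has no value without the sorted CAF library of tumor 1, whose cells mostly passed the epithelial gate. The all live values stand beside the call in each case. Without the 13 members rich in other cell types' genes the counts were 34 and 57.

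A pair of mesenchymal homeobox genes took opposite sides. Barx1, which patterns the stomach mesenchyme in mouse development, had 0 UMIs in 210 and 19 members of tumor 2 and held 138 and 163 CPM in the sorted CAF and all live libraries of tumor 1. It was seen in 10 of 26 and 12 of 24 members of tumor 1. Against the floor of 3 counts per library it was at least 127-fold higher in tumor 1 in the sorted CAF and at least 8.18-fold in the all live libraries. Nkx2-3, a factor of gut and spleen mesenchyme in the mouse, held 51.4 and 66.4 CPM in tumor 2, in 92 of 210 and 8 of 19 members. It had 0 and 1 UMI in tumor 1. This split was not particular to the Cxcl13 set. In fibroblasts with fewer than 2 shared genes Barx1 held 3.30 and 0 CPM in tumor 2 and 92.5 and 109 CPM in tumor 1, and Nkx2-3 held 56.4 and 34.9 CPM in tumor 2 and 15.9 and 8.40 CPM in tumor 1.

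Ligand, receptor and enzyme genes were among those higher in tumor 2. Tnfsf8, the ligand of CD30, held 114 and 59.8 CPM in tumor 2 and 5.32 and 0 CPM in tumor 1. Il13ra2, a decoy receptor for IL13, held 14.6 and 79.7 CPM in tumor 2 and had 0 UMIs in tumor 1. Ptgs2, the inducible cyclooxygenase, held 40.4 and 79.7 CPM in tumor 2 and 0 and 5.62 CPM in tumor 1. The peptidase inhibitor Pi15 held 59.7 and 120 CPM in tumor 2 and 0 and 5.62 CPM in tumor 1.

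Of the 16 collagen and basement membrane genes 1 was higher in tumor 2, of the 14 matrix proteases and inhibitors 1 and of the 10 IL1 and NF-kB response genes 1, while none of the 10 complement and 9 interferon genes was, and 0 genes of these lists were lower. Over all 5563 genes 0.665% were higher and 0.899% lower. Col8a1 held 190 and 79.7 CPM in tumor 2 and 10.6 and 0 CPM in tumor 1. Ptx3, a soluble pattern recognition protein, held 1452 and 1847 CPM in tumor 2 and 144 and 101 CPM in tumor 1, and Timp1, an inhibitor of matrix metalloproteases, held 2715 and 1701 CPM against 650 and 315 CPM. Of 11 myofibroblast genes that passed the filter, 2 (Acta2 and Col8a1) were 4-fold higher and 0 lower in tumor 2, with a median log2 ratio of 1.66, against −0.13 over all genes. In the acinar gene Prss2, also named here, 70 of 74 UMIs of the all live library of tumor 2 came from 1 cell.

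Single genes of the lipid and the redox lists were lower in tumor 2, namely 1 of the 8 lipid genes and 2 of the 10 glutathione and redox genes that passed the filter, and 0 of either were higher. Over all 5563 genes 0.899% were lower. Apoe held 1251 and 1149 CPM in the sorted CAF and all live libraries of tumor 2 and 8279 and 8787 CPM in those of tumor 1. Enpp2, the lysophosphatidic acid producing enzyme autotaxin, held 14.6 and 6.64 CPM in tumor 2 and 469 and 444 CPM in tumor 1. Gpx3, the plasma glutathione peroxidase, held 830 and 684 CPM in tumor 2 and 3408 and 3491 CPM in tumor 1, and the glutathione transferase Gstm1 110 and 113 CPM against 469 and 545 CPM. Nkain4 held 9.83 and 6.64 CPM in tumor 2 and 266 and 253 CPM in tumor 1, but in tumor 1 its UMIs came from 4 of 26 and 6 of 24 members. Krt19 held 3.64 and 0 CPM against 63.9 and 73.1 CPM, and the mesothelial list also summed higher in tumor 1. The part of mesothelial cells in these values was not tested, nor was that of epithelial RNA. The 7 ductal epithelial markers summed to 18.2 and 26.6 CPM in members of tumor 2 and to 213 and 247 CPM in those of tumor 1.

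The remaining names on the side of tumor 1 were uneven. The protease inhibitor Ctla2a held 233 and 126 CPM in tumor 2 and 14498 and 2147 CPM in tumor 1, where 1 cell held 805 of the 2723 UMIs of the sorted CAF library. Cpxm2, a carboxypeptidase-like protein, was seen in 5 of 26 and 3 of 24 members of tumor 1, and Serpinb2 in 3 and 2. The tight junction gene Cldn3 was seen in 2 and 2 members of tumor 1, and Tmem151a in 4 and 4. Cldn3 had 1 UMI in tumor 2.

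**Figure D5:**
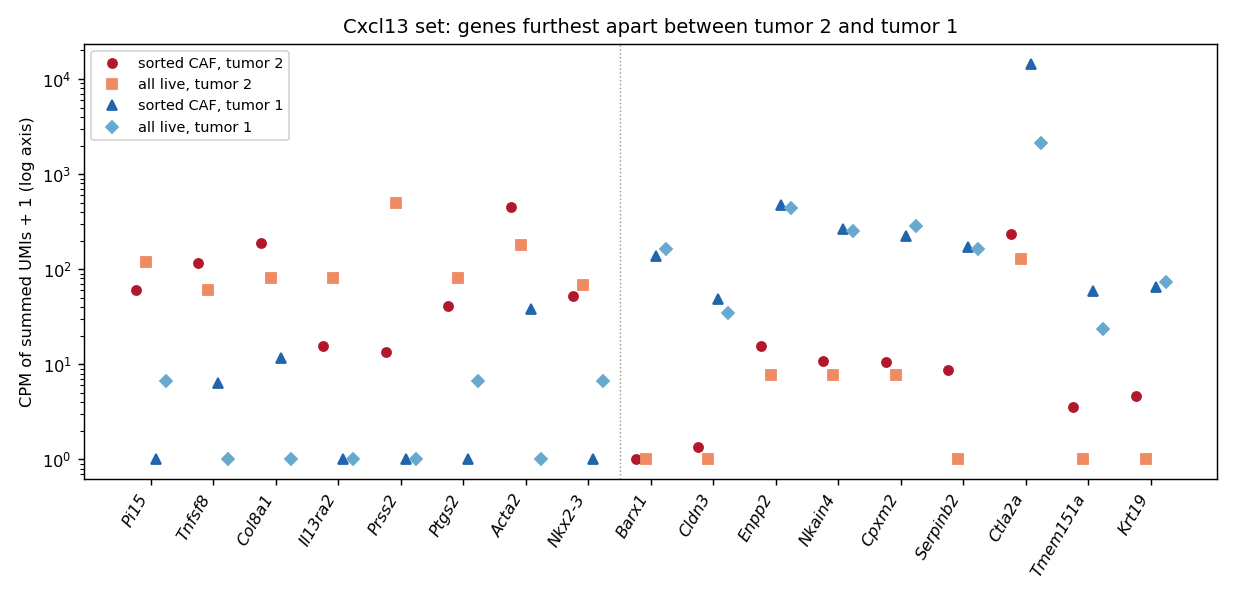
CPM + 1 on a log axis in the Cxcl13 set of each library for 8 of the genes furthest higher (left of the dotted line) and 9 of those furthest lower (right) in tumor 2 than in tumor 1. Points at the bottom have 0 UMIs; Barx1 has 0 UMIs in both libraries of tumor 2, against 138 and 163 CPM in tumor 1.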

How the data were processed

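UMI counts per gene and barcode of 4 libraries from 2 tumors were used as deposited by the authors, with no normalization. The submitters' processing notes name Cell Ranger 2.0.0, CASAVA 1.4 and the build mm10, and per the labels' protocols the libraries were made on the 10x Genomics platform. The rule for calling barcodes is not stated in them. The deposited gene and barcode tables hold names (other text, with no measurement). Same-numbered libraries share a tumor per the labels' descriptions and the series' design text, in which each biological replicate holds both fractions; their deviations from the group means correlated at 0.607, a single value with 2 libraries a group. The labels also speak of technical replicates, which could not be told apart in the files.

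UMIs were summed per set and library over at least 10 cells. Of 27998 gene rows, 65 share a symbol and were added up, giving 27933. Sorted CAF against all live sums were fitted with edgeR 4.0.16 (quasi-likelihood, TMM, filterByExpr with a minimum count of 10, R 4.3.3), with two-sided p-values adjusted by Benjamini-Hochberg and a threshold of 0.05. DESeq2 1.42.0 was an alternative. The edgeR steps and fold counts were tested on simulated counts. The SE of a log2 fold change was taken as its size divided by the root of the F statistic. Other comparisons are counts of genes at least 2-fold (between sets) or 4-fold (between tumors) apart in every library, at a mean of 20 or more CPM and with 1 CPM added. Shares have Clopper-Pearson intervals and odds ratios conditional exact ones. No doublets were removed; leaving out the highest scrublet scores (scanpy 1.11.5, 0.8% per 1000 barcodes, 157 cells) was an alternative. Members and gene lists were chosen with earlier results of these data known. Named between sets were the 12 genes in each direction with the largest ratio in their weakest library, between tumors the 10 in each direction by the smaller ratio of both fractions (some are not reported here), between fractions the genes called, and of each list the called genes and some of the 4 highest; others are named for a count or a marker and were chosen after their values were seen.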

Additional observations from a re-analysis of the deposited data

Results flagged for a closer look

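In 4 genes of the Cxcl13 set, sorted CAF and all live libraries lay in opposite order in the 2 tumors, with exact Poisson 95% intervals of the UMI sums that did not overlap within either tumor. These intervals cover counting error only, each tumor has 1 library per fraction, and the difference between the tumors was not tested. For Cxcl13 the log2 ratio of sorted CAF to all live (1 CPM added) was 3.10 in tumor 2, from 978 and 113 CPM, and −1.85 in tumor 1, from 2082 and 7510 CPM, a difference of 4.95. For Cxcl12 it was 0.39 in tumor 2 and −0.70 in tumor 1, a difference of 1.10. Car3 held 298 and 0 CPM in tumor 2 and 5.32 and 270 CPM in tumor 1, a difference of 13.6, and all 48 of its UMIs in the all live library of tumor 1 came from 1 cell. Col3a1, a gene of the gate, held 17036 and 18855 CPM in tumor 2 and 4616 and 3738 CPM in tumor 1, a difference of −0.45.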

How the results depend on the processing

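Counts of genes called between sorted CAF and all live members were 0 higher and 0 lower in the edgeR fit with all members, with ties left out, without high doublet scores, at 5% mitochondrial UMIs and without members rich in other cell types' genes. They were 0 and 1 with the replicate block, 1 and 1 with the block and without those members (Ctla2a higher at 2.09 ± 0.33, S100a8 lower at −3.75 ± 0.44), 0 and 4 with DESeq2, 6 and 23 with no filter, and 4 and 2 with at least 4 of the first 6 genes, a fit in which the all live library of tumor 2 was too small to enter. Leaving out a library gave 1 to 10 higher and 0 to 19 lower (10 and 19 without sorted CAF of tumor 1, 3 and 13 without sorted CAF of tumor 2, 7 and 18 without all live of tumor 1, 1 and 0 without all live of tumor 2); this leaves 1 library in a group, which is then assumed to vary like the others. Of the label and rule genes, only Cxcl13 was called, in the fit without all live of tumor 1, and the direction between fractions turned for Cxcl13 (0.11 with the block, 0.13 with the block and without members rich in other genes, −2.25 to 3.63 leaving out a library), Cxcl12 (−0.53 to 0.24), Lrg1 (−0.17 to 0.67), Steap4 (−0.57 to 0.082), Ggt5 (0.0037 with the block, 0.0065 with DESeq2, 0.039 with no filter, 0.30 at 4 of the first 6, −0.32 to 0.34 leaving out a library) and Sned1 (0.62 at 4 of the first 6, −1.22 to 0.29 leaving out a library). Shares moved to 13.7%, 4.62% and 3.19% with at least 4 of the first 6 genes (sorted CAF and all live of tumor 2, sorted CAF of tumor 1) and to 8.82%, 8.49%, 4.49% and 4.80% after thinning (adding all live of tumor 1). Genes apart from the Cd55 set were 171 higher and 97 lower with no filter, 21 and 33 against all other fibroblasts with the shared genes (where Ptn reversed to −1.63), and 77 to 236 higher and 85 to 214 lower without 1 library. Genes apart between tumors were 19 higher with 5 CPM added, and 258 higher and 168 lower with no filter; at 4 of the first 6 genes this could not be run, since 6 members remained in the all live library of tumor 2. Comparisons with other fibroblasts and those without members rich in other genes were added after seeing the data. The cause of these changes was not tested. Over the named genes and their alternatives, 437 values kept direction and side of the threshold, 37 were weaker, 15 stronger and 16 reversed. Depth limits what is said of the 3 libraries with 19 to 26 members, where 1 UMI is worth 5.32 to 6.64 CPM.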
